A study of Mus musculus with 2 samples.

Results

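The genes described here encode midkine (Mdk) and pleiotrophin (Ptn), which are secreted growth factors, and 2 families of cell-surface proteoglycans, the glypicans Gpc1, Gpc3, Gpc4 and Gpc6 and the syndecans Sdc1, Sdc2, Sdc3 and Sdc4. They are 10 of the 16593 genes named on the array, chosen by platform gene symbol, and they hold 16 of its 25697 probes. The cells were mouse embryonic fibroblasts (C57BL) grown in culture, and their RNA was measured on Illumina bead arrays of 1 colour, with 1 array for a p53-/- line (the control) and 1 for a Dnmt1-/- (p53-/-) line (Dnmt1-null below). Both lines lacked p53, so the arrays differ by Dnmt1, which restores methylation at CpG sites after DNA is replicated, and by whatever else separates 2 cultured lines. The sources used here do not give passage, derivation or the number of clones.

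Midkine and pleiotrophin are each other's closest relatives, and both bind heparin and the heparan sulphate chains of proteoglycans. Midkine is made widely in the mid-gestation mouse embryo and falls away in most adult tissues. Glypicans are held on the membrane by a lipid anchor, syndecans cross it, and both carry heparan sulphate chains that gather growth factors, Wnt proteins and Hedgehog proteins at the cell surface. Cultured fibroblasts commonly make members of both families.

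The 10 genes had been picked with the differences between these arrays in view, so their values are a description and carry no test. With 1 array per genotype no gene could be tested, and precision is limited by the number of arrays. Probes with a detection p-value under 0.01 count as detected, and a gene was called higher or lower when it was detected on at least 1 array and differed by 2-fold or more, which is 1 on the log2 scale. Levels are background-corrected, quantile-normalized log2 signals, and differences are Dnmt1-null minus control. Beside each difference stands the scatter of genes of similar level, a robust SD over the 500 nearest detected genes, which is not a replicate error. Levels of different probes are not compared, since probes differ in brightness. An "at least" fold is counted from the lowest normalized level of a detected probe on the array without detection, or from the probe's own level where higher. It holds for the main setting (the processing just described) only. Some undetected genes lay above that lowest level, so such a fold is nominal and can be smaller under other settings.

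The promoter windows of Gpc3, Gpc4 and Ptn are shown because Gpc3 and Gpc4 are neighbouring genes with unlike differences, because Ptn was level between the lines, and because CpG sites, set here in capitals, are where Dnmt1 maintains methylation. Each is the 250 bases before the RefSeq start of the gene (GRCm38.p6), 5′ to 3′ on the minus strand, at chrX:52613975-52614224, chrX:52164924-52165173 and chr6:36810180-36810429.
Gpc3: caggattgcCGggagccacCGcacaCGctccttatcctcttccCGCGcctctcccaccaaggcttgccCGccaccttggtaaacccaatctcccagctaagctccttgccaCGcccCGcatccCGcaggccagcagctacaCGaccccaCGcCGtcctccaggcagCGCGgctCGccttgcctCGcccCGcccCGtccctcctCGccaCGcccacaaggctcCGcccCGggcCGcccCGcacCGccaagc
Gpc4: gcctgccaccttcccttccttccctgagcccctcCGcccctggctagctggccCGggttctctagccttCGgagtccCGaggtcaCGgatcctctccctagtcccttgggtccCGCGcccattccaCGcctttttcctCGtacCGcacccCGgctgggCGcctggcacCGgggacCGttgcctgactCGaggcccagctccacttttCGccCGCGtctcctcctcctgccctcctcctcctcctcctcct
Ptn: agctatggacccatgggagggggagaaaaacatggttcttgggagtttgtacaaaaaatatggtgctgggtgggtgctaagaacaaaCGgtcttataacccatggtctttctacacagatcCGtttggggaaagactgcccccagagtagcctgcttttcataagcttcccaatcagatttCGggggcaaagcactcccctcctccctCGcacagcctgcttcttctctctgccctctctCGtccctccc

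The Gpc3 window held 25 CpG sites and the Gpc4 window 18, while the Ptn window held 5. Over all 32851 windows of the same length the median was 6, and 10.7% held as many as Gpc3 or more, 21.7% as many as Gpc4 and 55.6% as many as Ptn. A window was also on hand for Sdc1 (10 CpG sites), Sdc3 (32) and Sdc4 (19), which makes 6 of the 10 genes. The observed over expected CpG ratio was 0.936 for Gpc3, 0.712 for Gpc4 and 0.298 for Ptn, against a median of 0.374. The letters GGGCGG, known from GC boxes and themselves holding a CpG, occurred on either strand 3 times in the Gpc3 window, 1 time in that of Gpc4 and 0 times in that of Ptn, and 32.7% of all windows held them. TATAAA, searched on both strands, was in none of the 6 windows and in 12.4% of all windows. Methylation itself was not measured on these arrays.

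Across the arrays, 10302 probes (40.1%) were detected in the control and 10048 (39.1%) in the Dnmt1-null line, with a median signal of 150.5 and 129.8 units. Dnmt1 gave 1714 units in the control and 439 units in the Dnmt1-null line, a difference of -2.18 log2, and it was detected on both. Whether its probe lies in the part of the gene that was disrupted is not known from the sources used here, so that value may not check the label. Of 12 fibroblast markers on the array, 11 were detected on both arrays, among them Col1a1, Vim and Thy1. Their median difference was -0.51 log2, beside -0.04 log2 over all detected genes. S100a4 was higher (1.99 log2), Prrx1 was lower (-1.18 log2) and 9 lay in between. The summed normalized signal of the list was 44084 units in the control and 37841 in the Dnmt1-null line. None of the 6 endothelial and 5 hepatic markers on the array was detected. Ptprc, which defines blood cells, was not detected, and Cd3e was the 1 detected of 5 haematopoietic markers. Keratins Krt14, Krt7 and Krt8 were detected in the Dnmt1-null line alone, 3 of 9 epithelial markers, and Cdh1 was not detected. Krt14 and Krt7 were higher by 2-fold or more. Krt8 was within 2-fold (0.35 log2), at 164.6 units in the control and 154.8 units in the Dnmt1-null line. The summed normalized signal of all 9 was 304.5 units in the control and 1014 in the Dnmt1-null line. These normalized units are background-corrected and not on the scale of the deposited Krt8 units. Of 4 mesothelial markers Msln alone was detected, in the Dnmt1-null line, where it was higher (measured 2.70 log2, at least 3.87-fold). The summed normalized signals of all 4 were 107.9 and 263.7 units. Of 7 neural markers 3 were detected. Map2 (-1.60 log2) and Gap43 (measured -1.71 log2, detected in the control alone) were lower, and Stmn2 lay within 2-fold (-0.87 log2). Over all 7, detected or not, the summed normalized signals were 1002 and 483.3 units. The part of these markers in the differences below was not tested.

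**Figure D1:**
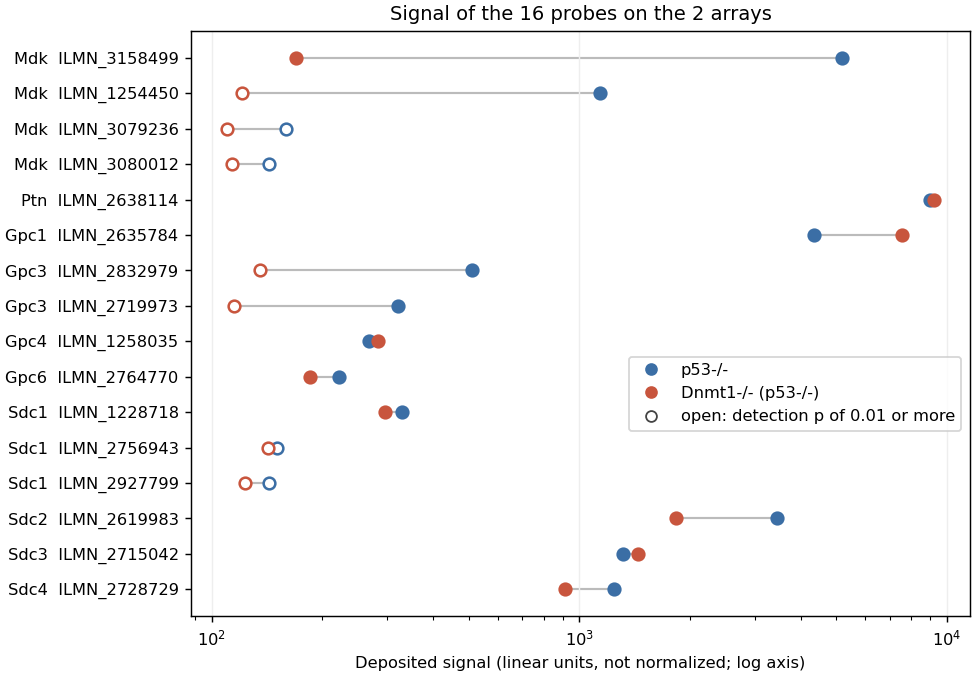
Deposited signal (linear units, log axis) of the 16 probes of the 10 genes on the p53-/- array (blue) and the Dnmt1-/- (p53-/-) array (red), with open circles where the probe was not detected. The widest gaps are at the detected Mdk and Gpc3 probes, from 5197 to 169.9 units at the brightest Mdk probe, while the Ptn points, at 8985 and 9237 units, nearly coincide.

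All 10 genes were detected in the control and 9 of them, all but Gpc3, also in the Dnmt1-null line. In the Dnmt1-null line 2 were lower by 2-fold or more, Mdk and Gpc3, 0 were higher, and 8 lay in between, from -0.94 to 0.73 log2. Of all 7727 genes detected on at least 1 array, 4.59% were lower and 5.55% higher by this rule, and since the genes were chosen on this contrast nothing is read from their count. Their median difference was -0.10 log2, beside -0.04 log2 over all detected genes. Of the 16 probes, 9 were detected on both arrays, 3 on the control alone and 4 on neither.

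Midkine had the widest difference of the 10 genes. Its brightest probe (ILMN_3158499) gave 5197 units in the control and 169.9 units in the Dnmt1-null line, where its detection p-value was 0.00251. After normalization these were 12.35 and 6.14 log2, so Mdk was 73.8-fold lower, a difference of -6.21 log2 beside a scatter of 0.34 log2. Among all detected genes, 2 had a larger decrease. Its signal in the Dnmt1-null line stood just above that of undetected probes, so the size of the fold depends on how background was treated, and without background correction the difference was -4.87 log2.

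The other Mdk probes bear on that value. ILMN_1254450 gave 1140 units in the control and 120.8 units in the Dnmt1-null line, where it was not detected. Under the main setting it was at least 19.8-fold lower, while its deposited signals differed by 9.44-fold. ILMN_3079236 gave 159.0 and 109.8 units and ILMN_3080012 gave 143.5 and 113.6 units, and neither was detected on either array. Both probes with a signal in the control were thus lower in the Dnmt1-null line, and the remaining pair carried no signal from which a difference could be read. The mean over all 4 probes was -3.05 log2, which includes that undetected pair. The platform assigns the probes to 3 RefSeq transcripts of the gene, and the brightest probe shares its transcript with ILMN_3079236.

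Pleiotrophin did not share the decrease of midkine. Its probe gave 8985 units in the control and 9237 units in the Dnmt1-null line. The normalized levels were 13.15 and 13.12 log2, a difference of -0.03 log2 beside a scatter of 0.20 log2, and its sign turned to 0.01 log2 under median scaling and with the authors' processed values. Of the pair of related growth factors, then, the control had both transcripts well above background, and the Dnmt1-null line kept the Ptn signal while its Mdk signal was near the limit of detection.

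**Figure D2:**
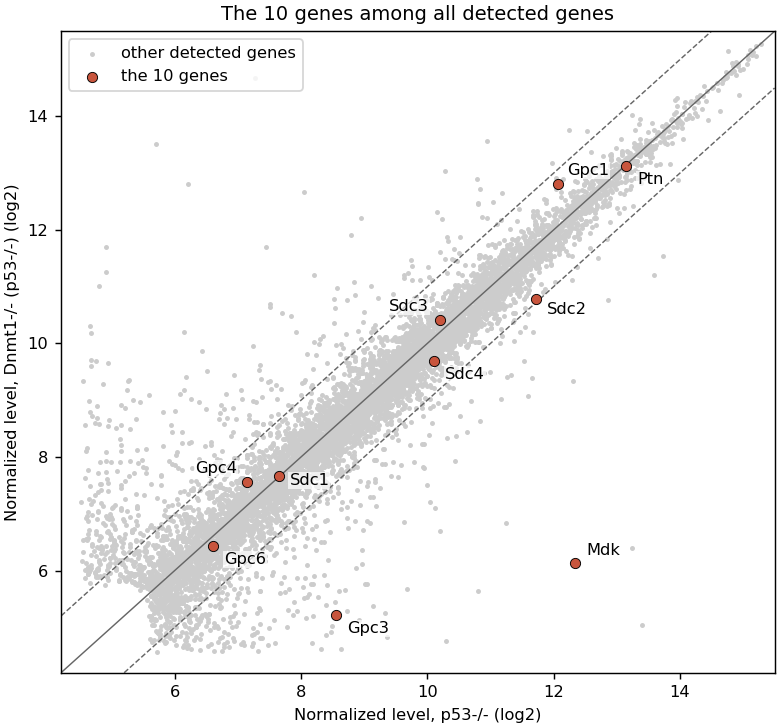
Normalized level (log2) of every detected gene on the p53-/- array (x axis) and the Dnmt1-/- (p53-/-) array (y axis), with the 10 genes in red, the diagonal as a solid line and 2-fold limits dashed. Mdk (12.35 against 6.14 log2) and Gpc3 (8.56 against 5.22 log2) lie below the lower limit, and Sdc2 just inside it.

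The 3 genes whose difference was nearest to that of Mdk were Igf2, Eif2s3y and Mfap2, with likeness measured by the difference between these 2 arrays only. Igf2, a fetal growth factor, went from 9533 to 182.9 units (-6.85 log2). Mfap2, a microfibril protein, went from 1933 to 149.7 units (at least 35.3-fold lower). Eif2s3y is Y-linked and went from 1395 units to 117.5 units without detection (at least 24.9-fold lower).

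Glypicans differed among themselves. Gpc3, whose loss in humans causes an overgrowth syndrome, was measured by 2 probes that both lost detection. ILMN_2832979 gave 511.8 units in the control and 135.4 units in the Dnmt1-null line, and ILMN_2719973 gave 321.1 and 114.6 units. At the brighter probe the normalized level went from 8.56 to 5.22 log2. Because the Dnmt1-null value was not above background, the fold is given as a nominal lower limit. It was computed under the main setting against the lowest normalized level of a detected probe on that array (5.66 log2). By that rule Gpc3 was at least 7.46-fold lower at the brighter probe (-2.90 log2) and at least 3.80-fold lower at the other. The measured difference at the brighter probe was -3.34 log2, beside a scatter of 0.48 log2. It was -2.53 log2 with an offset of 50 and -1.74 log2 without background correction, both smaller than that limit. In bulk RNA, fewer cells with the transcript and less of it per cell cannot be told apart.

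Gpc4, the neighbour of Gpc3 on the X chromosome in the RefSeq gene order, did not go with it. Its probe gave 267.9 units in the control and 282.9 units in the Dnmt1-null line, detected on both. The difference was 0.41 log2 beside a scatter of 0.39 log2. On the far side of Gpc3 the nearest measured gene was Ccdc160, and on the far side of Gpc4 it was Usp26; neither was detected on either array. The lower signal at this place was thus seen for Gpc3 and not for Gpc4, the 1 measured neighbour with a signal.

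The lines also differed at sex-chromosome genes, which were looked at after the value of Eif2s3y was seen. Besides Eif2s3y, the Y-linked genes Kdm5d (278.9 units in the control, 115.2 in the Dnmt1-null line) and Uty (183.9 and 147.5 units) were detected in the control alone, and Zfy1 on neither array. Kdm5d was lower (measured -2.52 log2). Uty lay within 2-fold (-0.36 log2), and its detection p-value in the Dnmt1-null line was 0.0464. Xist, the RNA that coats the inactive X chromosome, gave 141.2 units without detection in the control and 185.3 units with detection in the Dnmt1-null line. As a bound Xist was at least 1.84-fold higher, which does not pass the 2-fold rule. The labels give no sex for either line, so for the X-linked Gpc3 and Gpc4 the sex chromosomes of the lines and the loss of Dnmt1 cannot be told apart. Of 255 detected X-linked genes, 22 (8.63%) were lower and 26 (10.2%) higher, beside 4.59% and 5.55% of all detected genes, with a median of -0.01 log2 beside -0.04 log2.

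Gpc1, a glypican that takes part in FGF signalling, was the member with the largest positive difference. It gave 4343 units in the control and 7568 units in the Dnmt1-null line, which was 12.07 and 12.81 log2. The Dnmt1-null line was 1.66-fold higher (0.73 log2, scatter 0.25 log2), below the 2-fold rule, and 7.82% of detected genes had a larger increase. Gpc6 was dim on both arrays, at 221.8 and 184.7 units, and differed by -0.18 log2 beside a scatter of 0.46 log2.

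The remaining glypicans of the family, Gpc2 and Gpc5, gave little signal. Gpc2, known from developing neurons, gave 199.7 units in the control and 135.6 units without detection in the Dnmt1-null line. Its measured difference of -1.03 log2 only just passed the 2-fold rule, its scatter was 0.76 log2, and as a bound it was at least 1.51-fold lower, which does not pass. Gpc5, which lies next to Gpc6 in gene order, was not detected by any of its 3 probes.

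Syndecans lay within 2-fold throughout, with Sdc2 closest to the limit. Sdc2, the syndecan typical of mesenchymal cells, gave 3441 units in the control and 1827 units in the Dnmt1-null line. This was 1.92-fold lower (-0.94 log2, scatter 0.33 log2), and 5.14% of detected genes had a larger decrease. The Sdc2 difference ran from -0.98 to -0.90 log2 over the 9 alternative settings, so it stayed near the limit and never reached it.

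Sdc4, a syndecan of focal adhesions, gave 1245 units in the control and 912.3 units in the Dnmt1-null line, a difference of -0.42 log2 beside a scatter of 0.32 log2. Sdc3, best known from the nervous system, gave 1314 and 1443 units (0.21 log2, scatter 0.34 log2). Both are thus small next to the values of Mdk and Gpc3.

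Sdc1, the syndecan of epithelia and plasma cells, was measured by 3 probes. ILMN_1228718 gave 329.2 units in the control and 296.9 units in the Dnmt1-null line, a difference of 0.02 log2 beside a scatter of 0.38 log2. ILMN_2756943 (150.7 and 142.0 units) and ILMN_2927799 (143.2 and 123.3 units) were detected on neither array. The sign of the Sdc1 difference turned under median scaling and with the authors' processed values, both -0.12 log2. The value for Sdc1 thus rests on 1 dim probe.

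**Figure D3:**
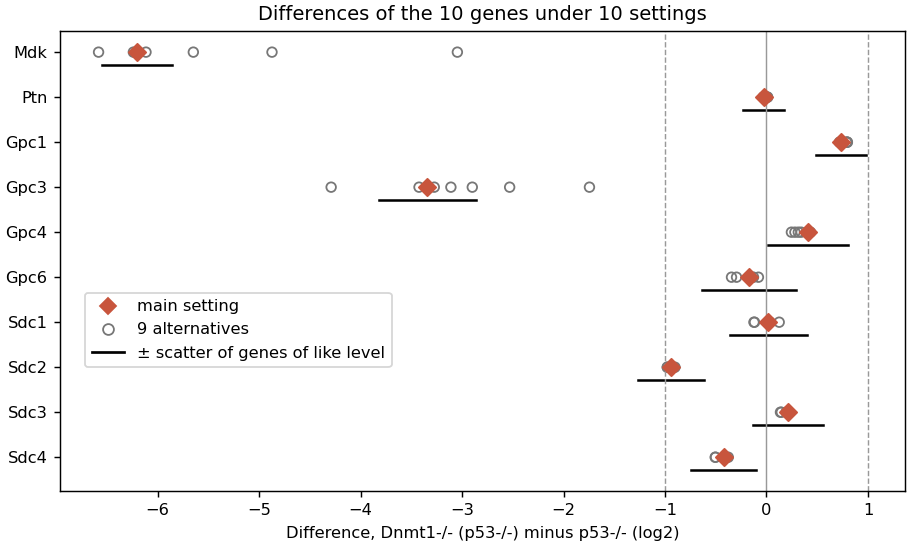
Difference of each of the 10 genes, Dnmt1-/- (p53-/-) minus p53-/- (log2), under the main setting (red diamonds) and 9 alternatives (open circles), with a black line for ± the scatter of genes of similar level and dashed lines at 2-fold. Every setting puts Mdk and Gpc3 below -1, with Mdk between -6.58 and -3.05 log2, and the other 8 genes between the dashed lines.

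Genes next to the 10 on the chromosome were mostly undetected or within 2-fold. The nearest measured gene on each side gave 18 further genes, of which 7 were detected, 0 were lower, 1 was higher and 6 lay in between. Of all 16593 genes, 7727 were detected, with 4.59% of those lower and 5.55% higher, so nothing is read from the counts of neighbours. Beside Mdk, Dgkz, a diacylglycerol kinase gene, gave 628.0 and 631.7 units (0.16 log2) and Chrm4 was not detected. Beside Ptn, neither Chrm2 nor Dgki was detected, and beside Gpc1 neither Otos nor Ankmy1. Beside Sdc2, Cpq, which encodes a carboxypeptidase, was 2.15-fold higher (310.3 units in the control and 477.8 in the Dnmt1-null line, 1.10 log2), opposite in sign to Sdc2. The Cpq difference was below 2-fold without background correction (0.78 log2), with an offset of 50 (0.98 log2) and under median scaling (0.96 log2). On the other side of Sdc2, Sema5a differed by 0.28 log2. Pum2 (0.55 log2) and Laptm4a (0.05 log2) flank Sdc1. Sys1 beside Sdc4 differed by -0.21 log2. Nkain1 beside Sdc3 was detected in the control alone, and as a bound it was at least 1.02-fold lower. Rbpjl beside Sdc4, Laptm5 beside Sdc3 and Dct beside Gpc6 were not detected.

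The wider heparan sulphate system was described with 8 lists of pathway genes, 118 genes in all with the 10 left out. On the array were 107 of them, 57 with a detected probe, and 4 (7.02%) were higher and 5 (8.77%) lower, beside 5.55% and 4.59% of all detected genes. The median of the 57 was -0.05 log2, beside -0.04 log2 over all detected genes. Counting bounds in place of measured differences where a gene was undetected on 1 array, 4 were higher and 2 lower, beside 4.5% and 3.71% of all detected genes.

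Enzymes that build and modify the heparan sulphate chain had 15 of 26 genes detected, all on both arrays, with 1 higher, 1 lower and 13 in between and a median of -0.29 log2. The list held 32 genes, and Ndst1, Ndst2, Hs3st2, Hs3st5, Sulf2 and Slc35b2 were not among the genes named on the array. Sulf1, an extracellular enzyme that removes 6-O-sulphate groups from the chain, gave 558.6 units in the control and 218.6 units in the Dnmt1-null line and was 3.51-fold lower (-1.81 log2, scatter 0.40 log2). Hs3st3a1, which adds 3-O-sulphate, gave 247.0 and 436.5 units and was 2.83-fold higher (1.50 log2, scatter 0.38 log2), or 0.97 log2 without background correction. The chain polymerases Ext1 (-0.52 log2) and Ext2 (0.03 log2) and the 2-O-sulphotransferase Hs2st1 (-0.07 log2) lay within 2-fold. Hs3st1 (-0.43 log2) and Hs6st1 (-0.40 log2), further sulphotransferase genes, did so too.

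Receptors for midkine and pleiotrophin had 6 of 11 genes detected, with 0 higher, 1 lower and a median of -0.04 log2. Ptprz1, a further receptor on the list, was not among the genes named on the array. Itga6, the integrin alpha 6 chain, gave 207.0 units in the control and 129.8 units without detection in the Dnmt1-null line, a measured -1.32 log2 that as a bound was at least 1.64-fold lower. The integrin alpha v gene Itgav lay at 0.88 log2, the endocytic receptor gene Lrp1 at -0.01 log2, Ptprs, a receptor phosphatase that binds heparan sulphate, at -0.08 log2 and Ncl, which encodes nucleolin, at -0.41 log2. Alk, a receptor tyrosine kinase, was not detected, so both lines had a signal for some of the listed receptors and not for others.

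Proteins that bind the syndecan tail had 11 of 12 genes detected, with 1 higher, 1 lower and a median of -0.04 log2. Tiam1, an activator of the GTPase Rac, gave 880.7 units in the control and 292.8 units in the Dnmt1-null line and was 3.74-fold lower (-1.90 log2, scatter 0.37 log2). Sdcbp2, which encodes syntenin-2, gave 177.8 units in the control without detection (detection p-value 0.0113) and 210.5 units in the Dnmt1-null line, a measured 1.04 log2 that was 0.43 log2 without background correction and 0.48 log2 with the mean of its 3 probes, so its call rests on the setting. Its relative Sdcbp, which encodes syntenin-1, differed by -0.21 log2.

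**Figure D4:**
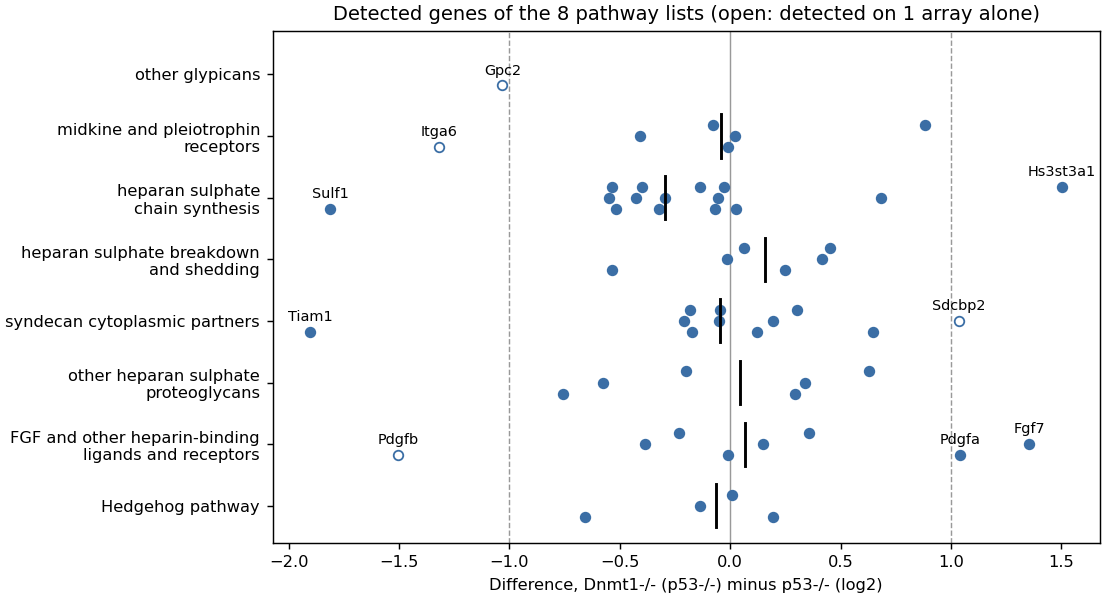
Difference, Dnmt1-/- (p53-/-) minus p53-/- (log2), of each detected gene of the 8 pathway lists, with filled points for genes detected on both arrays, open points for 1 array alone, black bars for the median of lists with 3 or more genes and dashed lines at 2-fold. Tiam1 (-1.90) and Sulf1 (-1.81) lie farthest to the left and Hs3st3a1 (1.50) farthest to the right, and every median lies between -0.29 and 0.16 log2.

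Heparin-binding ligands and their receptors had 8 of 19 genes detected, with 2 higher, 1 lower and a median of 0.07 log2. Fgf7, a growth factor made by mesenchyme for epithelium, gave 2014 units in the control and 4982 units in the Dnmt1-null line and was 2.56-fold higher (1.36 log2, scatter 0.31 log2). The platelet-derived growth factor gene Pdgfa gave 1213 and 2308 units and was 2.06-fold higher (1.04 log2, scatter 0.31 log2), just under 2-fold without background correction (0.97 log2), under median scaling (0.98 log2) and with the authors' processed values. Its relative Pdgfb gave 204.3 and 120.5 units, without detection in the Dnmt1-null line, and was at least 1.59-fold lower. Fgf2, a heparin-binding growth factor of fibroblasts, was not detected, and the receptor gene Fgfr1 differed by -0.23 log2.

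The remaining lists lay within 2-fold. Other heparan sulphate proteoglycans had 6 of 10 genes detected and a median of 0.05 log2, with Hspg2, which encodes perlecan of basement membranes, at -0.58 log2 and Cd44, which can carry heparan sulphate on some isoforms, at 0.34 log2. Genes for breakdown and shedding of the chains and core proteins had 6 of 14 detected and a median of 0.16 log2. Among them Mmp14, a membrane-bound metalloproteinase, differed by -0.01 log2 and Gusb, a lysosomal glucuronidase, by 0.42 log2. In the Hedgehog pathway, which Gpc3 restrains in the mouse embryo, 4 of 13 genes were detected with a median of -0.06 log2. The signal transducer Smo was at -0.14 log2 and Disp1, which releases Hedgehog proteins, at -0.66 log2, while the target genes Ptch1 and Gli1 were not detected on either array.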

How the data were processed

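Per the labels, total RNA was taken with TRIzol and biotin-labelled with a TotalPrep kit. The deposited intensity values are linear and, per the file headers, not normalized, and each has a deposited detection p-value. The authors also deposited processed intensity values. Set against the signals, these were linear, not log, and kept the probes' rank order (Spearman rho 0.99998 and 0.99997 across probes), with equal column means and medians of 14.2 and 13.8, so scale and direction are settled and the method of background and scaling stays unknown. Groups follow the genotype in the labels.

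Signals were processed with neqc of limma 3.58.1 in R 4.3.3 (normexp with control parameters inferred from detection p-values, offset 16, quantile normalization, log2), checked on simulated data. The simulation shifted bright probes only, so it does not bear on folds where 1 array is near background, such as those of Mdk and Gpc3. Python 3.11.15, pandas 2.3.3 and numpy 2.4.6 were used for the rest. Of the probes, 23978 had 1 gene symbol, 0 several and 1719 none, and 23962 matched the RefSeq gene table of GRCm38.p6 by Entrez identifier. For each gene the probe with the highest mean level was used, which is blind to the sign of a difference but, where 1 array is near background, favours a large one. The count rule uses measured differences.

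Named were the 10 genes, Dnmt1, Gpc2, Gpc5, from each pathway list up to 4 genes past 2-fold (or, with fewer than 2, up to 2 of the brightest detected), the nearest measured neighbours, and the 3 genes nearest to Mdk in difference. Others named are examples chosen after their values were seen. The members and lists were chosen with earlier results of these data known. Promoter windows are RefSeq's, read on the strand of the gene. In them TATAAA lay 15 to 40 bases before the start in 1.98% of minus-strand windows, and its reverse complement in 0.589%.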

Additional observations from a re-analysis of the deposited data

How the results depend on the processing

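Among 9 alternatives (no background correction, an offset of 50, median scaling, cyclic loess, the authors' values, a detection p-value under 0.05, no filter, the mean of all probes, bounds), Mdk and Gpc3 were the 2 lower genes of the 10, and 0 were higher, under all 9. Mdk ran from -6.58 to -3.05 log2 and Gpc3 from -4.29 (authors' values) to -1.74 log2 (no background correction), so their folds depend on the setting although their calls do not. Of the pathway genes, 1 was higher without background correction and 2 under median scaling, while 2 were lower without background correction, with an offset of 50 and with bounds. Without background correction Gpc2, Itga6, Hs3st3a1 (0.97 log2), Sdcbp2, Pdgfb, Pdgfa (0.97 log2) and Cpq (0.78 log2) no longer passed 2-fold. With an offset of 50 Gpc2, Itga6, Sdcbp2, Pdgfb and Cpq did not, under median scaling Sdcbp2, Pdgfa and Cpq, under cyclic loess Gpc2, with the authors' values Pdgfa, with the mean of all probes Sdcbp2 and Pdgfb, and with bounds Gpc2, Itga6 and Pdgfb. The causes were not tested. Over all detected genes, 429 were higher and 355 lower, against 199 and 142 without background correction, 233 lower with an offset of 50 and 568 lower with the authors' values. No paired analysis was possible because each genotype had 1 array, and for the same reason no array could be left out. Signals near the median of all probes set the limit of what could be read.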
